A study of Mus musculus with 8 samples.

Results

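C/D box small nucleolar RNAs (snoRNAs) with a Snord symbol were followed across mouse embryonic stem cells and mouse embryonic fibroblasts. The set holds 58 of the 5518 annotated small RNAs in the count tables. Of 82 rows whose symbol starts with Snord, it leaves out those of the large imprinted clusters, of several hosts with many snoRNAs, the most abundant single snoRNAs and the pre-rRNA cleavage snoRNAs, by a list of names. Because the list leaves out abundant snoRNAs and was chosen with earlier results of these data known, the set is not independent of the measured levels.

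C/D box snoRNAs are short nuclear RNAs that carry a C box near the 5′ end and a D box near the 3′ end. Bound to fibrillarin and its partners, most of them guide 2′-O-methylation of ribosomal RNA or of the U6 spliceosomal RNA by base pairing next to a D box, and a few act in pre-rRNA processing or guide acetylation. In mammals most are cut out of introns of other genes, many of which encode ribosomal proteins or translation factors, so that several snoRNAs can arise from 1 host transcript.

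The study counted small RNAs by target-enrichment sequencing (TEsR), in which linkers are ligated to both RNA ends after cap removal, ribosomal RNA having been depleted, and the amplified products are captured with probes and sequenced on a MiSeq. A standard TruSeq small RNA library sequenced on a HiSeq served as the other method. The fibroblasts (MEFs) carried a conditional allele of TRF2, a telomere-capping protein, and a tamoxifen-activated Cre (Rosa26-CreERT2) induced with 4-hydroxytamoxifen (4OHT, 0.6 µM for 48 hours). There were 3 groups: 4 MEF libraries by TEsR, 2 libraries of MES cells by TEsR and 2 MEF libraries by TruSeq. The MEF TEsR group mixes induced and uninduced cells, because the codes mm and pm in its library names are not explained by the labels, and its libraries are called mm S1, mm S2, pm S1 and pm S2. The MES cells were the uninduced B6G-2 embryonic stem cell line, grown without feeders and with leukaemia inhibitory factor, for which no TRF2 or Cre allele is named. The TruSeq libraries were of induced MEFs by their titles and are called A and C, after the first letter of their index. RNA was isolated with or without a step that enriches small RNA, and the labels do not say which library had it. Separate cultures are not stated for any group, and the p-values below therefore reflect the spread among these libraries alone, which may be technical.

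The libraries held 2676776 to 3768668 counts by TEsR and 8442960 and 8961221 by TruSeq. In each of the 6 TEsR libraries 2 other snoRNAs, Snord68 and Snord70, took 76.2% to 83.08% of all counts. In the TruSeq libraries Gm23212 and AC161199.1 took 67.83% and 71.58%. Levels are given as CPM, the count of a row scaled to the library's total, so the levels of all other RNAs move with those dominant rows. The cell labels matched marker microRNAs: embryonic stem cell microRNAs (11 in the tables) summed to 470 and 505 CPM in MES and to at most 1.33 CPM in MEF libraries, of which both TruSeq libraries held 0. Fibroblast microRNAs (8 in the tables) summed to 108 to 1003 CPM in MEF TEsR, to 44.1 and 83.1 CPM in TruSeq, and to 4.48 and 7.18 CPM in MES, where 5 of the 8 were at 0. In bulk samples fewer cells of a type and less RNA per cell cannot be told apart.

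All 58 rows were snoRNAs in GENCODE vM21 at the coordinates of the count tables (mm10), and none overlapped another row of the tables. Their lengths, taken as end minus start plus 1, ran from 64 bases (Snord37) to 238 bases (Snord17), with a median of 76. Of the 58, 38 lay in a protein-coding host, 17 in a non-coding host, and 3 (Snord104, Snord13 and Snord118) in none. A C box core (TGATG within the first 25 bases of the annotated strand) was found in 49 and a D box (CTGA within the last 25 bases) in 57. Both were found in 48 of the 58 (82.8%), against 314 of the 1449 other snoRNA rows (21.7%), which include H/ACA box snoRNAs that lack these boxes, and 48.6% of the 212 of those with at least 10 counts in a library. A match is a description of letters in these windows, not of a working box.

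The following sequences, from GENCODE vM21 on GRCm38 (mm10), are shown because the results turn on pairs cut from 1 host that were recovered differently, and on near-identical copies, 3 of which received no count. Capitals mark the C box core and the D box where the search found them. Snord42a (chr11:78181299-78181363, minus strand) and Snord42b (chr11:78183056-78183124, minus strand) lie in introns of Rpl23a, which encodes a protein of the large ribosomal subunit.
Snord42a: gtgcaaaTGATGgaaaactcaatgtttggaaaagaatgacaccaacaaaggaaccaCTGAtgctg
Snord42b: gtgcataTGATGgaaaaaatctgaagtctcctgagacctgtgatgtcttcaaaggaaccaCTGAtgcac
Snord45b (chr3:153910563-153910633, minus strand) and Snord45c (chr3:153912125-153912204, minus strand) lie in Rabggtb, which encodes a subunit of Rab geranylgeranyl transferase, in introns of some transcripts and exons of others.
Snord45b: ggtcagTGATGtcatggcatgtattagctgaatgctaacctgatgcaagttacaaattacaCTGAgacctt
Snord45c: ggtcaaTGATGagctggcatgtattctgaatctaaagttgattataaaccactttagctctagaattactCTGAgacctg
Snord49a (chr11:62603450-62603521, plus strand) and Snord49b (chr11:62603079-62603150, plus strand) lie in introns of the non-coding transcript 2410006H16Rik.
Snord49a: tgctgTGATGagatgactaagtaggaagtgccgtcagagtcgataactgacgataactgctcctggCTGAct
Snord49b: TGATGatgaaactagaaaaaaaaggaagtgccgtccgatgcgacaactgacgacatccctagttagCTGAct
Snord50a (chr9:88521529-88521600, minus strand) and Snord50b (chr9:88521797-88521868, minus strand), in Snhg5, differ by 1 edit.
Snord50a: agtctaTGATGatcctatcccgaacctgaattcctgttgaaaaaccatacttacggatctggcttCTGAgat
Snord50b: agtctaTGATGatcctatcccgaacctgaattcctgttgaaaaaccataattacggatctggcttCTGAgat
Snord1b (chr11:116674148-116674222, plus strand) and Snord1c (chr11:116672506-116672581, plus strand) differ by 2 edits, and share the non-coding host 1810032O08Rik with Snord1a (chr11:116674598-116674671, plus strand).
Snord1b: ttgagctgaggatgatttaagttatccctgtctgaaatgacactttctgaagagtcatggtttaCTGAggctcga
Snord1c: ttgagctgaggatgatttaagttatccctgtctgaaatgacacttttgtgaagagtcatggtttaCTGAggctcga
Snord1a: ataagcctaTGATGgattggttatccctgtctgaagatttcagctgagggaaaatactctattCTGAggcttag

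Identity was taken as the length of the longer sequence less the edits between both, over that length. Snord42a and Snord42b were 68.1% identical, Snord45b and Snord45c 67.5%, and Snord49a and Snord49b 69.4%, whereas Snord1b and Snord1c were 97.4% and Snord50a and Snord50b 98.6% identical. A further 4 sequences stand at the extremes of the comparisons. Snord111 (chr8:110838528-110838616, minus strand, an intron of Sf3b3) had the largest fold change upward in TEsR against TruSeq. Snord19 (chr14:31016206-31016281, minus strand, in Gnl3) had, after Snord1a, the largest fold change downward there, and no C box core was found in its window. Snord82 (chr1:86356261-86356330, minus strand, an intron of Ncl, the nucleolin gene) was the most abundant in MES, and Snord23 (chr7:15938762-15938870, minus strand, an intron of Nop53) had no count in any MEF TEsR library.
Snord111: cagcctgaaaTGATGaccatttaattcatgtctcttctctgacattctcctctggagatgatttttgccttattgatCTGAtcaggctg
Snord19: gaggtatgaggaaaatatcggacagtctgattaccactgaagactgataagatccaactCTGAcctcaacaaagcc
Snord82: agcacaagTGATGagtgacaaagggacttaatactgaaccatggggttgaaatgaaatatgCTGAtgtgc
Snord23: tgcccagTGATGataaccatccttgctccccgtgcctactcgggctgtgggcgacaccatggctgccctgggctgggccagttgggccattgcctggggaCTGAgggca

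The first question was how much of each library these snoRNAs held and which of them carried it. They took 3.69% ± 0.836 of all counts in MEF TEsR (SD, n = 4), 1.541% ± 0.099 in MES (SD, n = 2) and 8.322% ± 0.0212 in TruSeq (SD, n = 2), with no overlap between the 3 groups. In MEF TEsR a few snoRNAs carried most of it: the top 3 of each library held 63.64% ± 5.19 of the counts on the 58 (SD, n = 4), and were Snord111 and Snord72, both 28S rRNA guides, with Snord4a, an 18S rRNA guide, or Snord87, a 28S rRNA guide. In TruSeq the top 3 were Snord4a, Snord52 and Snord55 and held 40.12% ± 3.34 (SD, n = 2). Counts were less concentrated in MES, where the top 3 of a library held 28.49% ± 0.354 (SD, n = 2) and were Snord82 and Snord87 with Snord55 or Snord100. The exact two-sided permutation test over libraries gave p = 0.0667 for the share of all counts in both MEF TEsR against TruSeq and MES against MEF TEsR, which is the smallest p that 4 against 2 libraries allow, so no such difference can reach 0.05.

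**Figure D1:**
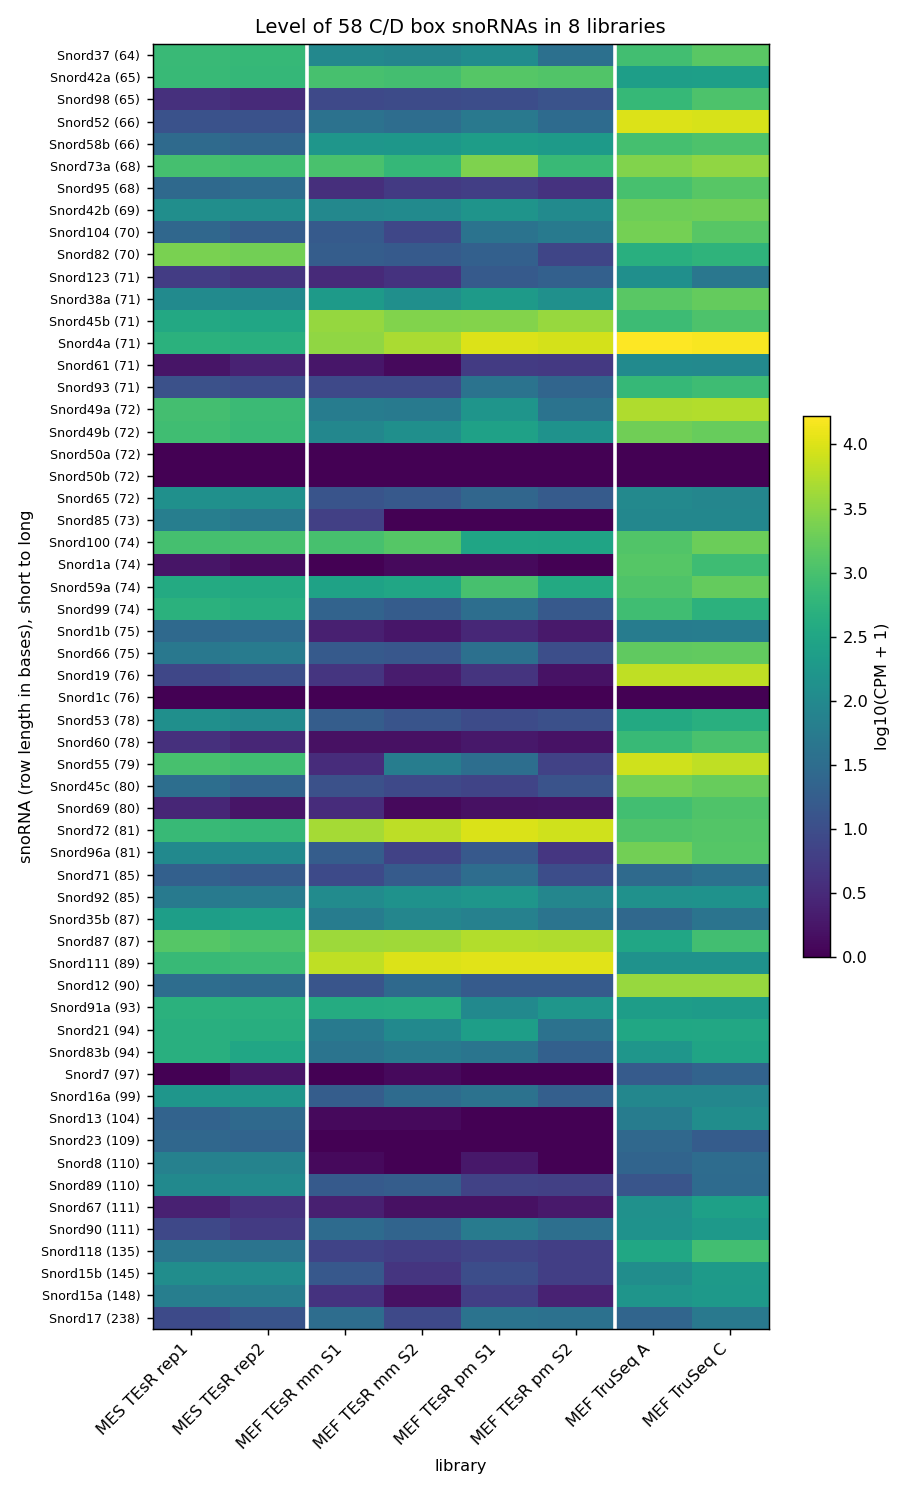
Level of each of the 58 snoRNAs (rows, ordered from the shortest to the longest annotated row, with the length in bases) in the 8 libraries (columns), as log10 of CPM plus 1 on a colour scale. Snord111, Snord72, Snord4a, Snord87 and Snord45b are the highest in the 4 MEF TEsR libraries, though Snord4a is higher still in both TruSeq libraries. Snord82 stands out in the 2 MES libraries, and Snord1c, Snord50a and Snord50b are at 0 in all 8.

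Compared per length, as CPM per 100 bases, the order in MEF TEsR was Snord111 (10733), Snord4a (9525), Snord72 (8945), Snord87 (5487) and Snord45b (4542). By single libraries, Snord111 stood at 6645, 9919, 10678 and 10967 CPM in mm S1, mm S2, pm S1 and pm S2, Snord72 at 4604, 6412, 9524 and 8444 CPM, and Snord4a at 3313, 4815, 10034 and 8888 CPM. By CPM Snord111 was thus the highest of these 3 in each library, while the order of Snord72 and Snord4a differed between libraries. The place of Snord4a in the order per 100 bases therefore did not hold in each library. In MES the highest per 100 bases was Snord82 (3155 CPM), followed by Snord87 (1364), Snord73a (1325), Snord100 (1302), Snord55 (1170) and Snord49a (1164). Snord82 stood at 2337 and 2080 CPM in the 2 MES libraries, above every other of these snoRNAs in both. The order of Snord87 and Snord100 in MES did not hold, since Snord87 had 1290 and 1084 CPM over its 87 bases and Snord100 935 and 991 CPM over its 74. In TruSeq the order was Snord4a (22730), Snord52 (14754), Snord55 (9511), Snord19 (8662), Snord49a (7548), Snord73a (4386) and Snord12 (4196 CPM per 100 bases).

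Detection differed as well. At a minimum of 10 counts, 55 of the 58 were seen in each TruSeq library, 47.5 ± 0.707 in MES (SD, n = 2) and 43.25 ± 1.26 in MEF TEsR (SD, n = 4), and 41.75 ± 1.71 in MEF TEsR after each library was thinned to the smallest total of 2676776 counts. The TruSeq number did not change on thinning. Snord1c, Snord50a and Snord50b had 0 counts in all 8 libraries, and each has a near-identical copy among the sequences printed above. Reads that fit 2 copies equally may have been left out of the authors' counts, which was not tested, so a count of 0 for these rows says nothing of the snoRNA, and Snord1b, with 0.796 to 1.98 CPM in MEF TEsR, 27.3 and 29.1 CPM in MES and 57.6 and 59.7 CPM in TruSeq, is uncertain for the same reason. Snord23 had 0 counts in all 4 MEF TEsR libraries, 25.1 and 22.4 CPM in MES and 26.1 and 15.9 CPM in TruSeq. Of the 12 rows over 95 bases, 6 reached 10 counts in every MEF TEsR library, 10 in both MES libraries and 12 in both TruSeq libraries.

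Sorting the snoRNAs by length gave a measure within each library that needs no scaling between libraries. Rows of at most 75 bases (28 rows) held 39.11% ± 3.29 of the counts on the 58 in MEF TEsR (SD, n = 4), 60.57% ± 0.099 in MES and 65.95% ± 0.594 in TruSeq (both SD, n = 2). Rows of 76 to 95 bases (18 rows) held 60.56% ± 3.35 in MEF TEsR, 35.39% ± 0.354 in MES and 32.11% ± 1.41 in TruSeq. Rows over 95 bases (12 rows) held 0.3226% ± 0.0807 in MEF TEsR, 4.043% ± 0.253 in MES and 1.936% ± 0.82 in TruSeq. MEF TEsR overlapped neither other group in any of the 3 classes. The length of the rows weighted by their counts was 80.12 ± 0.635 bases in MEF TEsR (SD, n = 4), 78.03 ± 0.12 in MES and 74.56 ± 0.403 in TruSeq (both SD, n = 2). Each of these differences from MEF TEsR had p = 0.0667 by the exact two-sided permutation test, again the smallest possible. The weighted length rested on the top snoRNAs, since without the top 3 of each library it was 76.48 ± 2.77 bases in MEF TEsR, 78.82 ± 0.516 in MES and 76.71 ± 0.509 in TruSeq, where MEF TEsR and TruSeq overlapped. The middle class in MEF TEsR is largely Snord111 (89 bases), Snord72 (81 bases) and Snord87 (87 bases).

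**Figure D2:**
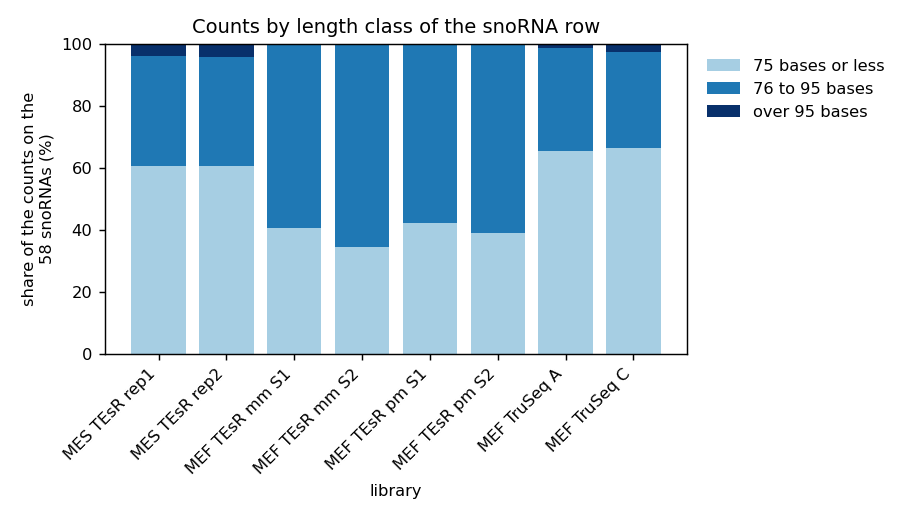
Share (%) of the counts on the 58 snoRNAs that fell on rows of at most 75, of 76 to 95 and of over 95 bases, as stacked bars from 0 for each of the 8 libraries. The middle class holds 57.36% to 65.14% in the 4 MEF TEsR libraries and 31.11% to 35.64% in the 4 others.

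Pairs from 1 host give a second measure free of scaling, as the ratio of their counts within a library. Of the pairs that share a host, 12 pairs in 8 hosts had counts in every library. In Rpl23a, whose introns hold 3 of these snoRNAs, the 18S rRNA guides Snord42a and Snord42b stood in opposite order by method: Snord42a over Snord42b was 10.6, 8.67, 8.68 and 11.4 in the MEF TEsR libraries, 5.72 and 5.51 in MES, and 0.121 and 0.116 in TruSeq. Snord42a was thus the higher of the pair in all 6 TEsR libraries and the lower in both TruSeq libraries. The third snoRNA of Rpl23a, Snord4a, exceeded Snord42a in the MEF libraries of both methods, where Snord42a over Snord4a was 0.131 to 0.296 by TEsR and 0.014 and 0.0156 by TruSeq, but not in MES (1.39 and 1.4).

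In Rabggtb, Snord45b over Snord45c, both listed as 18S rRNA guides, was 357, 355, 452 and 351 in MEF TEsR, 10.9 and 15.1 in MES, and 0.365 and 0.63 in TruSeq. This was the most unequal pair in MEF TEsR. In 2410006H16Rik, the 28S rRNA guides Snord49a and Snord49b stood at a ratio of 0.283 to 0.653 in MEF TEsR, 1.08 and 1.04 in MES, and 2.58 and 3.14 in TruSeq. In Wdr43, which encodes a factor of ribosome assembly, Snord53 over Snord92, both 28S rRNA guides, was 0.0496 to 0.158 in MEF TEsR, 2.28 and 1.77 in MES, and 2.73 and 3.25 in TruSeq. Here MES stood on the side of TruSeq. In Rps3 the 2 long 28S rRNA guides Snord15b (145 bases) and Snord15a (148 bases) had ratios of 4.25, 6.5, 1.78 and 3.2 in MEF TEsR, 1.82 and 1.91 in MES, and 0.735 and 1.04 in TruSeq.

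Of the 12 pairs, 10 did not overlap between MEF TEsR and TruSeq and 8 did not overlap between MES and MEF TEsR. Over all 18915 pairs of the 195 rows with a count in every library, whatever their host, these shares were 86% and 79.3%, so a lack of overlap was common and is not particular to pairs of 1 host. These pairs include those named above, with the exception that Snord15b over Snord15a overlapped between MES and MEF TEsR. The order of the pair, by the median library, differed between MEF TEsR and TruSeq in 6 of the 12. The share of turned orders over all pairs of rows was not counted, so whether this is particular to pairs of 1 host was not tested. Over the 24 tests (12 pairs in both comparisons, which share the MEF TEsR libraries), the exact two-sided permutation p of a pair was at the least 0.0667, the smallest possible, and 0.0941 after Benjamini-Hochberg adjustment. The pairs of Gnl3 (Snord19 and Snord69) and Rack1 (Snord95 and Snord96a) overlapped in both comparisons. In 1810032O08Rik, Snord1a over Snord1b was 22.3 and 13.5 in TruSeq and 0.0263 and 0.0128 in MES. In MEF TEsR, Snord1a had 0 counts in mm S1 and pm S2 and Snord1a over Snord1b was 0.333 and 0.143 in mm S2 and pm S1, on 1 count of Snord1a in each case.

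**Figure D3:**
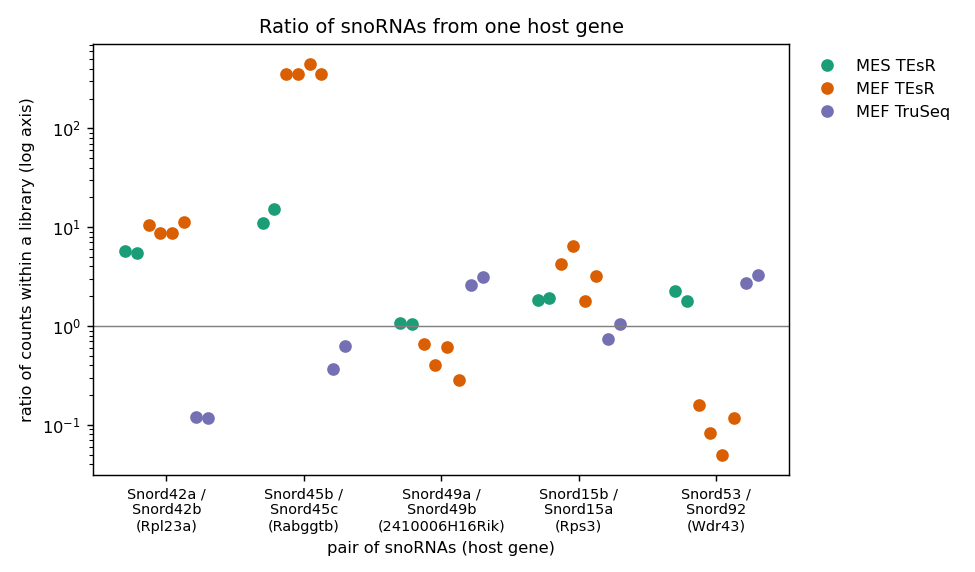
Ratio of the counts of 2 snoRNAs from 1 host gene within each library, on a log axis, for 5 of the 12 pairs, chosen after their values were seen. All 5 are among the 6 pairs whose order, by the median library, differed between MEF TEsR and TruSeq. Each point is a library and the grey line marks a ratio of 1. Snord42a over Snord42b and Snord45b over Snord45c lie above 1 in all 6 TEsR libraries and below 1 in both TruSeq libraries.

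The comparison of MEF TEsR with MEF TruSeq asks what the choice of method does to each snoRNA in the same kind of cell. The method cannot be told apart from the instrument, from a tag in the TEsR column names alone (q10, meaning not stated), or from the mixing of uninduced with induced cells in the TEsR group. Of the 58 snoRNAs, 55 passed the filter on low counts, and at an adjusted p under 0.05 (edgeR's quasi-likelihood test, Benjamini-Hochberg adjustment over all 352 rows tested) 6 were higher and 40 lower by TEsR. In all rows tested 88.1% were called, with 32.4% higher and 55.7% lower, beside 83.6% of the 55, so the share called is near the background. Directions here depend on scaling: with the scaling and test on snoRNA rows only, chosen after seeing the data, the fold changes moved up by a median of 2.53 on the log2 scale and 18 of the 55 were higher and 29 lower (of 227 snoRNA rows, 81.1% called, 23.3% higher and 57.7% lower). The median log2 fold change of the 55 was -4.49, beside -2.42 over all rows tested, and with snoRNA rows only -1.91 beside -2.24. Under all 4 scalings tried, 5 of the 6 higher and 28 of the 40 lower calls were kept, and the snoRNAs below are of these unless a different result is given.

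The 5 kept higher calls were Snord111, Snord87, Snord72, Snord42a and Snord45b. Snord111, a 28S rRNA guide, had 6645 to 10967 CPM in the MEF TEsR libraries and 143 CPM in both TruSeq libraries. Its mean CPM was 66.9-fold higher by TEsR, and the log2 fold change on the edgeR scale, which adds a scaling factor per library, was 6.72 ± 0.57 (SE, adjusted p = 2.23e-07). Snord87 in Snhg6, a 28S rRNA guide, had 4105 to 5422 CPM by TEsR against 319 and 871 CPM by TruSeq (log2 fold change 3.71 ± 0.50, adjusted p = 1.54e-05). Snord72, a 28S rRNA guide in an intron of Rpl37, had 4604 to 9524 CPM by TEsR against 1132 and 1224 CPM (3.25 ± 0.46, adjusted p = 2.41e-05). These 3 lie in the middle length class. The other two are shorter and are the higher members of their host pairs by TEsR: Snord42a, with 981, 922, 1315 and 1204 CPM by TEsR and 235 and 241 CPM by TruSeq (2.84 ± 0.43, adjusted p = 3.76e-05), and Snord45b, with 2640 to 3809 CPM by TEsR and 789 and 1091 CPM by TruSeq (2.45 ± 0.44, adjusted p = 0.000155). Their partners were lower by TEsR, Snord42b at -3.52 ± 0.37 (adjusted p = 1.6e-06) and Snord45c at -7.17 ± 0.50 (adjusted p = 4.74e-08).

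Among the lower calls, Snord1a had 2 counts in all over the 4 MEF TEsR libraries and 1283 and 808 CPM in TruSeq. The ratio of pooled CPM was 7504, with an exact 95% counting interval of 2077 to 61971. Snord19, for which the lists used here give no target, had 3.49, 1.06, 3.39 and 0.621 CPM by TEsR and 6636 and 6530 CPM by TruSeq, a 3076-fold lower mean CPM by TEsR (log2 fold change -11.03 ± 0.57, adjusted p = 5.71e-09). It was the 4th snoRNA of the set per length in TruSeq, and no MEF TEsR library held more than 3.49 CPM of it. Snord69, a 28S rRNA guide from the same host Gnl3, the nucleostemin gene, was lower as well, with 0.265 to 2.41 CPM by TEsR and 880 and 1170 CPM by TruSeq (-9.40 ± 0.66, adjusted p = 4.74e-08). Snord60, a 28S rRNA guide, had 0.531 to 0.848 CPM by TEsR and 704 and 1023 CPM by TruSeq (-9.76 ± 0.53, adjusted p = 6.72e-09). Snord1a, Snord69, Snord60 and, below, Snord23 passed the filter on low counts through TruSeq alone, so a higher call was hardly open to them.

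Snord52, a 28S rRNA guide and second in TruSeq, had 29.5 to 49.8 CPM by TEsR and 10150 and 9326 CPM by TruSeq (-7.45 ± 0.39, adjusted p = 5.71e-09). Snord12, a 28S rRNA guide in the non-coding Zfas1, had 11.8 to 27.1 CPM by TEsR and 3766 and 3787 CPM by TruSeq (-7.06 ± 0.52, adjusted p = 7.12e-08). The libraries of the 2 methods did not overlap for Snord52 and Snord12, and the share of all rows without overlap was not counted. For Snord1a, Snord19, Snord69 and Snord60 a lack of overlap was a condition for naming them by largest change. Snord55, a 28S rRNA guide, had 2.41, 61, 33.1 and 5.9 CPM in mm S1, mm S2, pm S1 and pm S2 and 8466 and 6560 CPM in TruSeq. Its mean CPM was 293-fold lower by TEsR (-7.50 ± 1.31, adjusted p = 0.00112), with a wide spread among the TEsR libraries. Snord23 was at least 24.8-fold lower by TEsR, taking 3 counts per library as the limit that a count of 0 allows.

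Some abundant snoRNAs did not pass this test. Snord4a, the most abundant of the set in TruSeq (16796 and 15480 CPM), had 3313 to 10034 CPM by TEsR and a log2 fold change of -0.66 ± 0.43 (adjusted p = 0.164), but 1.89 with snoRNA rows only. Snord73a, a 28S rRNA guide, had 1016, 648, 2588 and 742 CPM by TEsR and 2625 and 3341 CPM by TruSeq, with -0.76 ± 0.41 (adjusted p = 0.0978), -1.24 (adjusted p = 0.00505) without pm S1, and 1.83 with snoRNA rows only. Snord100, an 18S rRNA guide, overlapped between the methods, with 292 to 1298 CPM by TEsR and 1185 and 1877 CPM by TruSeq (-0.32 ± 0.66, adjusted p = 0.652), and its value was 0.10 without pm S2.

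By role, with targets taken from the human counterparts, 28S rRNA guides made up 29 of the 58 and 26 of those tested, of which 3 were higher and 18 lower by TEsR (9 and 13 with snoRNA rows only). Of the 14 18S rRNA guides, 2 were higher and 10 lower (6 and 7 with snoRNA rows only). Called were 80.8% of the 28S guides tested, 85.7% of the 18S guides and 87.5% of those with no listed target. Of all rows tested 88.1% were called, 32.4% higher and 55.7% lower. The 3 U6 guides, Snord7, Snord8 and Snord67, were all lower under all 4 scalings, Snord67 with 0.531 to 1.34 CPM by TEsR against 135 and 251 CPM by TruSeq (-7.15 ± 0.59, adjusted p = 1.74e-07). These 3 had at most 5 counts in any MEF TEsR library and passed the filter on low counts through TruSeq alone. A higher call was thus hardly open to them. Both snoRNAs of pre-rRNA processing and acetylation were lower as well. Snord118 (U8), which is transcribed from its own promoter and acts in processing of the large-subunit rRNAs, had 4.97 to 6.22 CPM by TEsR and 326 and 893 CPM by TruSeq (-6.07 ± 0.49, adjusted p = 1.55e-07). Snord13, which guides acetylation of 18S rRNA, had 2 counts over the 4 MEF TEsR libraries and 58.8 and 117 CPM in TruSeq, a ratio of pooled CPM of 620 (exact 95% counting interval 171 to 5128). It too passed the filter through TruSeq alone. Of the 5.8S rRNA guides, Snord96a was lower (-6.90 ± 0.56, adjusted p = 1.57e-07), while Snord71 stood at 7.78 to 30.8 CPM by TEsR and 28 and 37.2 CPM by TruSeq and was not called. The 8 with no target in these lists counted 1 higher and 6 lower (2 and 3 with snoRNA rows only). Of these, Snord23 and Snord85 passed the filter through TruSeq alone, as did Snord1a, Snord1b, Snord60 and Snord69 of the 28S rRNA guides. Snord35b, the 1 higher call not kept under all scalings, had 41 to 87 CPM by TEsR and 25.4 and 41.1 CPM by TruSeq (1.63 ± 0.55, adjusted p = 0.0127).

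The change between methods showed no trend with length over the 55 tested (Spearman's rho -0.00, Pearson's r 0.06, across snoRNAs that share the same libraries, as a description). The 163 other snoRNA rows tested gave a rho of -0.46. By class, 2 were higher and 21 lower of 26 up to 75 bases, 4 and 9 of 17 from 76 to 95, and 0 and 10 of 12 over 95 bases. Of those up to 75 bases, Snord1a, Snord1b and Snord85 passed the filter on low counts through TruSeq alone. So did Snord60 and Snord69 from 76 to 95 bases, and Snord7, Snord8, Snord13, Snord23 and Snord67 over 95 bases. A higher call was hardly open to any of these. The shares called by class were 88.5%, 76.5% and 83.3%, beside 88.1% of all rows tested. The median log2 fold changes were -4.02, -1.84 and -5.76 (-5.11 with Snord23 at its bound), and the middle one turned to 0.65 with snoRNA rows only. Among the shortest, Snord37 (64 bases, a 28S rRNA guide in Eef2) had 35.4 to 113 CPM by TEsR and 882 and 1412 CPM by TruSeq (-3.21 ± 0.44, adjusted p = 1.73e-05), with an adjusted p of 0.133 with snoRNA rows only. Snord98 (65 bases), an 18S rRNA guide in Ccar1, had 7.51 to 10.9 CPM by TEsR and 673 and 1091 CPM by TruSeq (-5.95 ± 0.47, adjusted p = 1.29e-07). Snord42a, of the same 65 bases, stood on the other side, as given above. The longest, Snord17 (238 bases), had 30.8, 7.7, 39.3 and 36.6 CPM by TEsR and 22.7 and 50.9 CPM by TruSeq and was not called (0.26 ± 0.61, adjusted p = 0.695). With snoRNA rows only it was called higher by TEsR (2.81, adjusted p = 0.00213). Snord15a (148 bases) was lower by TEsR (-5.58 ± 0.59, adjusted p = 1.75e-06), as was Snord15b (145 bases, -3.77 ± 0.53, adjusted p = 2.07e-05), the latter with an adjusted p of 0.0573 with snoRNA rows only.

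**Figure D4:**
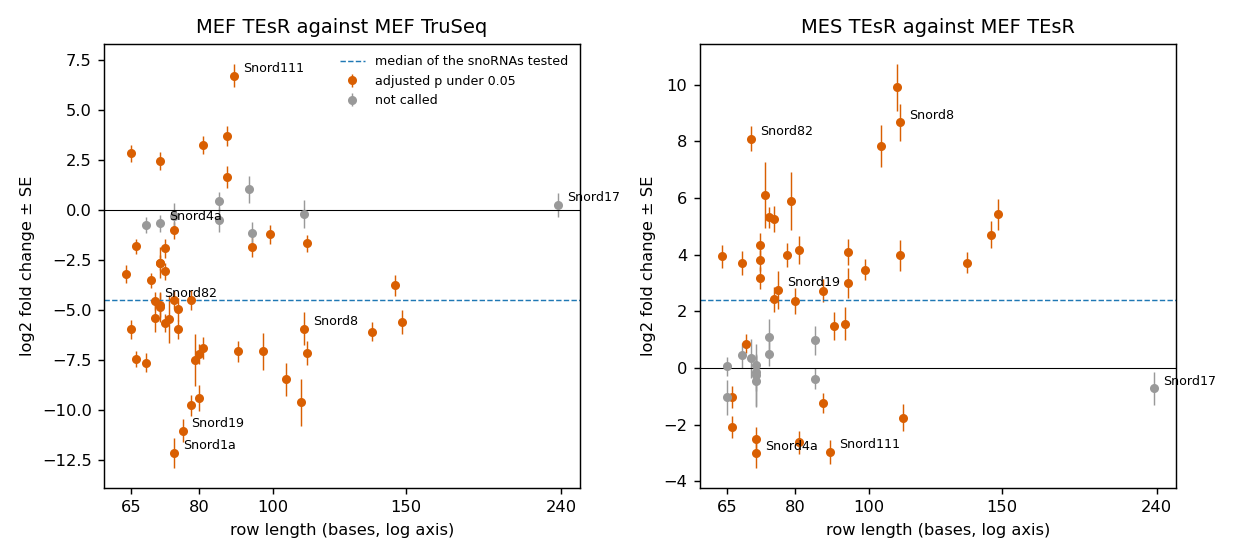
Log2 fold change (edgeR, with its SE as bars) of each tested snoRNA against the length of its row in bases on a log axis, for MEF TEsR against MEF TruSeq (55 snoRNAs) and MES TEsR against MEF TEsR (50); orange marks an adjusted p under 0.05 and the dashed line the median of the snoRNAs tested. Points on the left panel show no trend with length (rho -0.00) and those on the right a weak one (rho 0.31); moving to a scaling on snoRNA rows shifts the points by a median of 2.53 on the left and of -1.65 on the right, and the fitted value of Snord23 (109 bases), at 0 counts in MEF TEsR, is no bound.

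MES cells were compared with MEFs within the TEsR method. Cell type cannot be told apart here from culture medium, the TRF2 and Cre alleles or the 4OHT given to some of the MEFs. Of the 58 snoRNAs 50 were tested, and 29 were higher and 8 lower in MES (edgeR, adjusted p under 0.05), where 75.1% of all 273 rows tested were called, 43.6% higher and 31.5% lower. With snoRNA rows only, 23 were higher and 18 lower (of 150 rows, 79.3% called, 48% higher and 31.3% lower), with the fold changes moved by a median of -1.65. The median log2 fold change was 2.39, beside 0.45 over all rows tested, and 0.73 beside 0.92 with snoRNA rows only. Under all 4 scalings 22 of the 29 higher and all 8 lower calls were kept. The lower calls numbered 5 without MES replicate 2.

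Snord82, an 18S rRNA guide, had 2337 and 2080 CPM in MES and 16.9, 14.9, 18.4 and 6.52 CPM in MEF TEsR. Its mean CPM was 156-fold higher in MES (log2 fold change 8.09 ± 0.44, adjusted p = 4.96e-07). In TruSeq MEF libraries it had 462 and 551 CPM, between both TEsR groups. Snord8, a U6 guide in Chd8, had 70.4 and 76.2 CPM in MES and at most 0.848 CPM in MEF TEsR, where mm S2 and pm S2 had 0 (8.67 ± 0.67, adjusted p = 2.41e-06). Snord23, with 130 counts in MES and 0 in MEF TEsR, was at least 28.1-fold higher in MES. Snord13 had 21.2 and 27.3 CPM in MES, and its ratio of pooled CPM to the 2 MEF TEsR counts was 172 (exact 95% counting interval 46.8 to 1437).

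Snord55 had 1003 and 846 CPM in MES against 2.41 to 61 CPM in MEF TEsR (5.90 ± 1.03, adjusted p = 0.00049, and 0.0543 with no filter on low counts). Snord85, for which these lists give no target, had 63.2 and 48.6 CPM in MES, 5.36 CPM in mm S1 and 0 in the 3 other MEF TEsR libraries (6.11 ± 1.18, adjusted p = 0.000916, and 0.0796 with DESeq2). Snord85 passed the filter on low counts through MES alone, so a lower call was hardly open to it. The groups did not overlap for any of these snoRNAs, which was a condition for naming them by largest change and is no result. Of the other higher calls, Snord15a had 63.6 and 59.8 CPM in MES and 0.531 to 5.09 CPM in MEF TEsR (5.43 ± 0.55, adjusted p = 1.11e-05), Snord99 of Snhg12 had 504 and 436 CPM against 14.3 to 32.2 CPM (5.32 ± 0.38, adjusted p = 1.81e-06), and Snord49a 905 and 772 CPM against 39.7 to 160 CPM (4.33 ± 0.44, adjusted p = 1.11e-05).

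The 8 lower in MES were Snord4a, Snord111, Snord72, Snord45b, Snord58b, Snord90, Snord87 and Snord52. The first 4, with Snord87, are the 5 most abundant of the set in MEF TEsR. Snord4a had 506 and 460 CPM in MES against 3313 to 10034 CPM in MEF TEsR (-3.01 ± 0.51, adjusted p = 0.000325). Snord111 had 694 and 752 CPM against 6645 to 10967 CPM (-2.97 ± 0.42, adjusted p = 9.61e-05), and Snord72 711 and 651 CPM against 4604 to 9524 CPM (-2.63 ± 0.41, adjusted p = 0.000199). For these 3 the mean CPM was 14-fold, 13.2-fold and 10.6-fold lower in MES. Snord45b had 352 and 321 CPM against 2640 to 3809 CPM (-2.51 ± 0.41, adjusted p = 0.000253). Snord58b, a 28S rRNA guide in Rpl17, had 28 and 23.5 CPM against 165 to 227 CPM (-2.10 ± 0.39, adjusted p = 0.000606). Snord90 in Rc3h2, for which these lists give no target, had 7.18 and 4.48 CPM against 22.3 to 56 CPM (-1.76 ± 0.48, adjusted p = 0.00644, and 0.105 without MES replicate 2). Snord87 had 1290 and 1084 CPM against 4105 to 5422 CPM (-1.24 ± 0.34, adjusted p = 0.00756), with adjusted p of 0.0805 and 0.117 without MES replicate 1 and 2. Snord52 stood at 10.4 and 10.5 CPM against 29.5 to 49.8 CPM (-1.02 ± 0.40, adjusted p = 0.0377), and its adjusted p was 0.0814 with no filter on low counts, 0.0659 without pm S2, and 0.183 and 0.193 without MES replicate 1 and 2.

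Both comparisons use the same MEF TEsR libraries, so that a value peculiar to those libraries moves both. The mean CPM of Snord111 was 723 in MES, 9552 in MEF TEsR and 143 in TruSeq, and that of Snord45b 337, 3225 and 940. Snord82 had 2208, 14.2 and 506, Snord55 924, 25.6 and 7513, and Snord19 8.08, 2.14 and 6583 CPM in the same order. Snord19 was thus below 10 CPM in every TEsR library, while Snord55 was at 846 CPM or more in the MES and TruSeq libraries.

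By role, 13 of the 23 tested 28S rRNA guides were higher in MES and 5 lower (11 and 10 with snoRNA rows only), and of the 14 18S rRNA guides 6 were higher and 2 lower (3 and 6 with snoRNA rows only). Called were 78.3% of the 28S guides tested, 57.1% of the 18S guides and 87.5% of those with no listed target. Of all rows tested 75.1% were called, 43.6% higher and 31.5% lower. The median log2 fold change of the 28S guides was 1.56, turning to -0.09 with snoRNA rows only, and that of the 18S guides 0.69, turning to -0.97 with snoRNA rows only and to -0.15 with library size only. Both processing and acetylation snoRNAs were higher under these scalings, Snord118 with 45.2 and 40.7 CPM in MES against 4.97 to 6.22 CPM in MEF TEsR (3.72 ± 0.38, adjusted p = 1.11e-05). Of the 3 U6 guides only Snord8 was tested, the others having too few counts by TEsR. Snord8 and Snord13 passed the filter on low counts through MES alone. So did Snord1b of the 28S guides, and Snord23 and Snord85 of those with no listed target. A lower call was hardly open to these snoRNAs. Of the 5.8S rRNA guides, Snord96a was higher, with 99.8 and 102 CPM against 3.72 to 16.6 CPM (4.17 ± 0.49, adjusted p = 2.7e-05), and Snord71 was not called. The 8 with no listed target counted 6 higher and 1 lower (5 and 2 with snoRNA rows only).

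By length, 11 were higher in MES and 4 lower of 25 up to 75 bases, 10 and 3 of 15 from 76 to 95, and 8 and 1 of 10 over 95 bases. With snoRNA rows only these became 9 and 12, 6 and 4, and 8 and 2. Of those up to 75 bases, Snord1b and Snord85 passed the filter on low counts through MES alone. Of those over 95 bases, Snord8, Snord13 and Snord23 did so as well. A lower call was hardly open to any of these. The shares called by class were 60%, 86.7% and 90%, beside 75.1% of all rows tested. The median log2 fold changes were 0.51, 2.36 and 4.34, of which the first turned to -1.15 with snoRNA rows only and to -0.37 with library size only. Over the 50 tested, Spearman's rho of the change with length was 0.31 (Pearson's r 0.15), and 0.36 (r 0.37) without the 238-base Snord17. Snord17 stood at 7.9 and 11.6 CPM in MES and was not called (-0.72 ± 0.59, adjusted p = 0.286, and 0.0287 without mm S2). With snoRNA rows only it was called lower in MES (-2.47, adjusted p = 8.74e-05). The 100 other snoRNA rows tested gave a rho of 0.49, so a positive relation was not particular to these members. The base composition of the rows moved with the same change: rho with GC content was 0.52 (r 0.56) over the 50 in MES against MEF TEsR and -0.19 (r -0.27) over the 55 in MEF TEsR against TruSeq. The part of GC content in the relation with length was not tested. All these are descriptions across snoRNAs, which are not replicates.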

How the data were processed

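The authors deposited raw read counts for each annotated small RNA, without normalization, in a TEsR and a TruSeq table of the same 5518 rows, per the file headers. The submitters' processing notes name cutadapt, BWA 0.7.12, SAMtools 1.2.1, bedtools 2.25.0 and mm10; the role of each, the settings, the treatment of reads with several matches and whether counting used strand are details not given in the sources used here. Columns were assigned by name; 4 MEF TEsR columns show their group but not which sample they are. The TruSeq table is called a control by its name while the titles say induced, and groups follow the titles. Reads carried no molecular identifiers, so intervals and limits cover counting error only. Host genes, gene types and sequences come from GENCODE vM21.

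Counts of the groups compared were fitted with the quasi-likelihood test of edgeR 4.0.16, under R 4.3.3 (robust fit, TMM scaling, rows filtered by filterByExpr at 10 counts), and p-values were adjusted by Benjamini-Hochberg over all rows tested. The SE of a log2 fold change was its size over the square root of the F statistic. Shares, ratios and weighted lengths were tested over libraries by exact two-sided permutation (scipy 1.17.1). Replicate counts differed beyond sampling noise (chi-square over degrees of freedom of 21.9 or more), so none was counted as a duplicate. On simulated counts every 4-fold and 16-fold change was recovered (100% in each comparison, over 316 and 235 rows), and 155 of 157 and 115 of 118 unchanged rows were not called. The simulation pooled the composition over both groups, gave all rows the same spread and set changes at random in both directions. It therefore lacks the dominant rows that differ by method and the uneven directions of the data. Alternatives were DESeq2 1.42.0, library size only, no filter, all 3 groups in one fit, duplicate rows counted once, each library left out, a replicate block for MES against MEF TEsR and, chosen after seeing the data, snoRNA rows only.

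SnoRNAs were named with values by rule: the 6 of highest mean CPM in each group, up to 6 called of largest change in each direction and comparison among those that reached a mean of 10 CPM and whose groups did not overlap, the 3 shortest and 3 longest with at least 10 counts, and the longest called higher and shortest called lower by TEsR. Host pairs and further examples of each role were added after their values were seen. The snoRNAs, the lists by target (from human counterparts) and the tests were chosen with earlier results of these data known. No column of another sample was present.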

Additional observations from a re-analysis of the deposited data

Results flagged for a closer look

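In 3 of the 46 snoRNAs tested for a library far from the others among the 4 MEF TEsR libraries, 1 library stood apart by Dixon's 95% limit, where chance gives about 1 in 20. Snord59a, an 18S rRNA guide in Atp5b, had 987 CPM in pm S1 and at most 369 CPM in the 3 others. Snord49a had 160 CPM in pm S1 and at most 59 CPM in the others. Snord85 had 5.36 CPM in mm S1 and 0 in the 3 others. The groups of 2 libraries are too small for this check.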

How the results depend on the processing

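Of the comparisons of named snoRNAs under each alternative, 321 kept direction and call for MEF TEsR against TruSeq and 291 for MES against MEF TEsR, 4 and 6 passed the threshold anew, 3 and 17 lost it, and 8 and 11 changed sign. In MEF TEsR against TruSeq, leaving out a library gave 5 to 7 higher and 36 to 42 lower calls, and snoRNA rows only gave 18 higher. In MES against MEF TEsR these were 25 to 31 higher and 5 to 9 lower, and 18 lower with snoRNA rows only; 5 lower came without MES replicate 2. Leaving out 1 library moved rho with length from -0.03 to 0.01 and from 0.28 to 0.31. Log2 fold changes that changed sign in MEF TEsR against TruSeq were those of Snord100 (0.31 with DESeq2, 2.15 with snoRNA rows only, -0.94 to 0.10 when a library was left out, the latter without pm S2), Snord17 (-0.36 with library size only) and, with snoRNA rows only, Snord4a (1.89), Snord58b (0.73), Snord73a (1.83) and Snord90 (0.89). In MES against MEF TEsR they were, with snoRNA rows only, Snord100 (-0.53), Snord12 (-0.12), Snord42a (-1.59) and Snord73a (-1.25), with library size only Snord42a (-0.72) and Snord73a (-0.47), and Snord42a with DESeq2 (-0.11), no filter (-0.07), all 3 groups in one fit (-0.11), and when a library was left out (-0.19 to 0.17, with -0.19 without mm S1 and -0.14 without MES replicate 1). The number seen per MEF TEsR library was 41.75 after thinning and 51 at a minimum of 1 count, and 54.5 in MES at that minimum. Apart from the scaling, whose shift is given with the comparisons, the cause was not tested. No paired analysis was possible for MEF TEsR against TruSeq because the TruSeq columns carry no replicate number. For MES against MEF TEsR, S1 and S2 were read as sample numbers: with these as a replicate block 28 were higher and 7 lower, and of the named calls Snord52 was lost (adjusted p = 0.078). The deviations of same-numbered libraries from their group means correlated at -0.06 to 0.02 over 273 rows. The deviations of the 2 MES libraries mirror each other, so these values cannot show whether same-numbered libraries share a batch. With 2 libraries in MES and in TruSeq, exact tests over libraries cannot pass 0.05, and where 1 is left out the lone library is assumed to vary like the other group. Levels near 1 count, such as those of Snord1a, Snord13 and Snord23 in MEF TEsR, are limited by depth.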
